A study of Mus musculus with 4 samples.

Results

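The endothelin, angiotensin and corticosteroid receptor genes examined here are 10 of the 54532 genes in the deposited count table of mouse podocytes treated with IL-12. They were taken by gene name and are Edn1, Ece1, Ednra and Ednrb of the endothelin system, Agt, Ace and Agtr1a of the angiotensin system, and Nr3c1, Nr3c2 and Fkbp5 of corticosteroid signalling. RNA-sequencing was performed on the MPC5 mouse podocyte cell line, a conditionally immortalized line. The methods describe podocytes of this kind as grown with IFN-γ and then differentiated without it, in medium with serum. The IL-12 treatment group consisted of 2 libraries from cells exposed to IL-12 over 6 h, at a dose of 400 ng/ml. The control group consisted of 2 libraries from cells given saline, for which the labels give no time. No steroid, endothelin or angiotensin is listed among the additions to either group, and neither group carries a genetic change that the other lacks. All 4 libraries come from one cell line, and nothing in the labels says that those of a group were separate cultures, so the p-values measure only the spread between these libraries.

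Endothelin-1, the product of Edn1, is a vasoconstrictor peptide that is released from a longer precursor by endothelin converting enzyme 1 (Ece1) and acts through the G-protein-coupled receptors encoded by Ednra and Ednrb. Angiotensinogen (Agt) is cut by renin and then by angiotensin converting enzyme (Ace) to angiotensin II, which signals through the type 1 receptor (Agtr1a in the mouse). Both peptides are known to act on podocytes and to favour proteinuria, and blockers of the angiotensin system are in wide use against it. Glucocorticoids, the usual therapy of minimal change disease, act through the glucocorticoid receptor (Nr3c1). The mineralocorticoid receptor (Nr3c2) binds aldosterone and also glucocorticoids, and Fkbp5 encodes a co-chaperone of HSP90 that lowers the hormone affinity of the glucocorticoid receptor and is itself induced by it.

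Total counts were between 18355379 and 20098012 per library, so that 3 counts, the smallest level taken as detectable, corresponded to 0.149 to 0.163 CPM (counts scaled to library size), which covers counting error only. The other CPM values given here were further scaled by TMM factors of 0.985 to 1.02 per library. The podocyte label was compared with 12 podocyte marker genes. Synpo, Actn4, Kirrel and Cd2ap were abundant, but Nphs1, which encodes the slit diaphragm protein nephrin, had 1 count in all 4 libraries together, Tcf21 and Ptpro had 0, and Wt1 had 4 to 16 counts per library. The summed level of the podocyte list was 2850 to 2861 CPM in the control libraries and 2806 to 2825 CPM in the IL-12 libraries. Within it Synpo fell (log2 fold change -0.66, adjusted p = 3e-11 from edgeR's quasi-likelihood test) and Podxl and Actn4 rose by 0.33 and 0.17 on the log2 scale. Podxl was no longer called without IL-12 replicate 1 (adjusted p = 0.0516). Of 7 endothelial markers, none exceeded 5 counts in a library, and their sum was 0.265 to 0.633 CPM. The summed tubular markers, mostly Lrp2, were 635 to 661 CPM in control and 519 to 560 CPM after IL-12, the leukocyte markers 26.3 to 29.0 and 16.1 to 20.2 CPM, with Cd3e and Adgre1 at 0, and the mesangial markers 69.7 to 70.7 and 71.3 to 82.0 CPM. The lower leukocyte sum lay in Csf1r (22.2 ± 1.14 against 12.1 ± 1.40 CPM, SD, n = 2; edgeR log2 fold change -0.88), while Cd68 was at 5.32 ± 0.874 against 5.61 ± 1.29 CPM and Ptprc had 3 and 1 counts against 6 and 12. The part of these markers in the results that follow was not tested.

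The receptors through which endothelin and angiotensin II act were not detected. Ednra and Ednrb had 0 counts in all 4 libraries, and so did Ace. Agtr1a had 1 count in control replicate 1 and 0 in the other libraries. A count of 0 in the 4 libraries together, 75781084 counts in all, allows a level of up to 0.0396 CPM, so that these transcripts were below detection at this depth and no difference between the groups could be tested for them. The remaining members, Edn1, Ece1, Agt, Nr3c1, Nr3c2 and Fkbp5, passed the filter on low counts in both groups. On the deposited FPKM scale, which divides by gene length and so allows levels of different genes to be compared, the order in the control group was Ece1 (26.0 ± 1.03, SD, n = 2), Nr3c1 (22.2 ± 0.439), Edn1 (4.98 ± 0.142), Nr3c2 (2.60 ± 0.0390), Fkbp5 (2.23 ± 0.107) and Agt (1.37 ± 0.0342). No neighbours in this order overlapped between their control libraries. In the IL-12 treatment group Fkbp5, at 3.31 ± 0.154 FPKM, stood above Nr3c2, at 1.77 ± 0.129 FPKM.

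**Figure D1:**
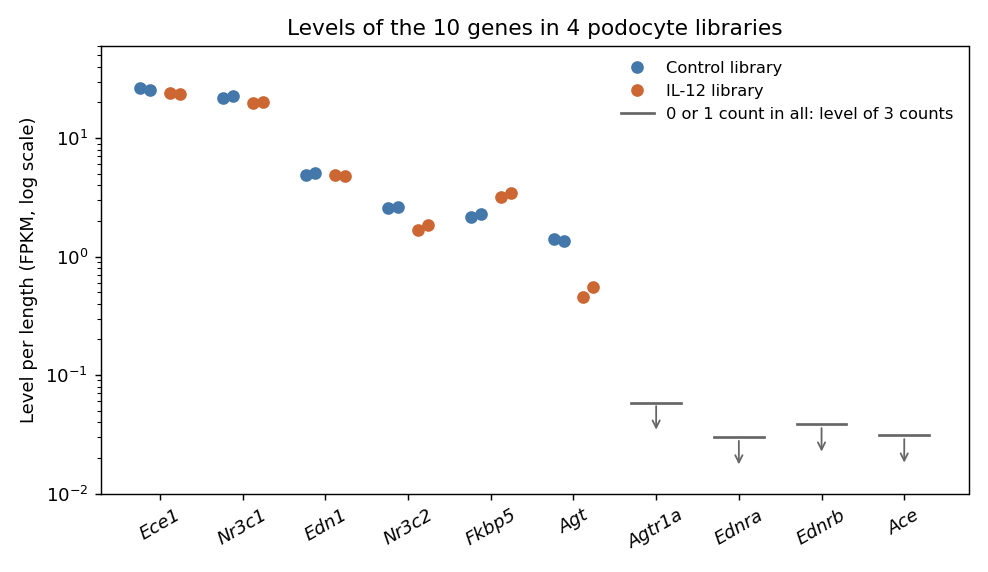
Level per length (FPKM, log scale) of the 10 genes in each of the 4 libraries, with control libraries in blue and IL-12 libraries in orange. Ece1 and Nr3c1 lie near 20 to 27 FPKM, Edn1 near 5, Nr3c2, Fkbp5 and Agt between 0.455 and 3.42, and the grey lines give the level that 3 counts in the shallowest library would have for the 4 genes with 0 or 1 count.

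Of the 6 members that could be tested, 1 was upregulated and 4 were downregulated at an adjusted p below 0.05 in edgeR's quasi-likelihood test. Of all 14095 genes tested, 30.5% passed this threshold, 16.1% upward and 14.4% downward. For each of the 6 members both IL-12 libraries lay on one side of both control libraries, upward for 1 and downward for 5, and the same held for 62.9% of all genes tested (31.7% upward and 31.2% downward). In such bulk samples fewer expressing cells and less RNA per cell cannot be told apart. When a change of over 2-fold was also required, Agt alone was called among the 6 members, against 1.61% of all genes tested (0.858% upward and 0.752% downward). The median log2 fold change of the 6 tested members was -0.14, and that of all genes tested was -0.0022. Leaving out IL-12 replicate 1 reduced the downregulated members from 4 to 2. With 2 libraries in each group the smallest two-sided p of an exact permutation test is 0.333, and the p-values of edgeR rest on a spread shared across genes.

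**Figure D2:**
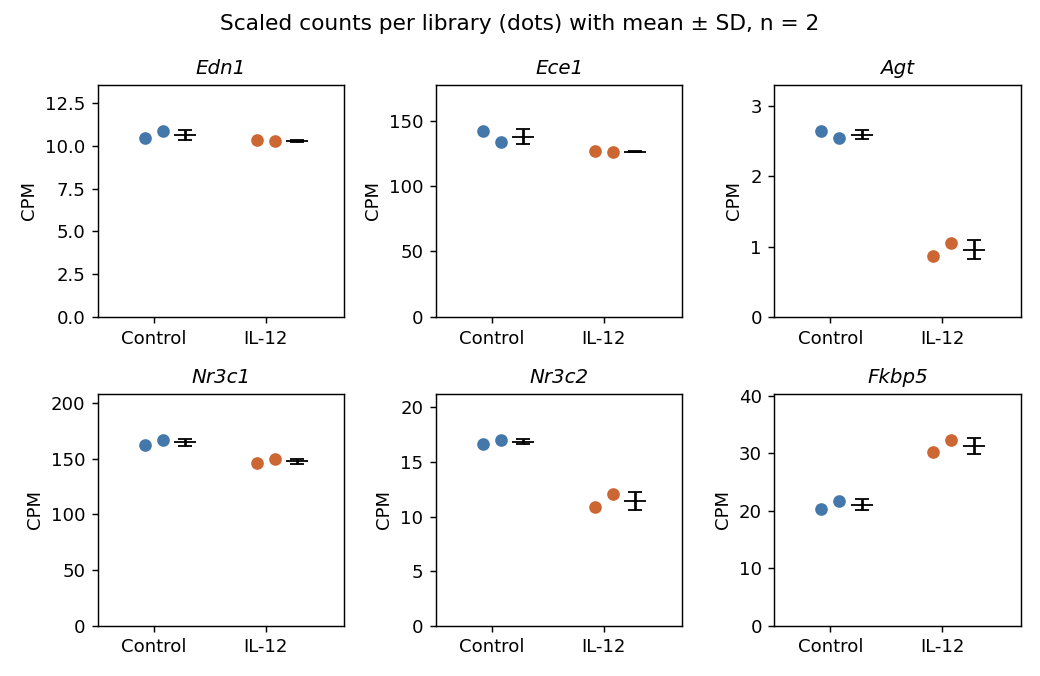
CPM scaled by TMM factors in each library for the 6 members that could be tested, with each vertical axis starting at 0; dots are libraries and bars are the mean ± SD of 2 libraries. Agt and Nr3c2 are lower and Fkbp5 is higher in both IL-12 libraries by a margin visible on this scale, while Edn1, Ece1 and Nr3c1 differ by little.

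In the endothelin system the ligand showed no detectable change and its converting enzyme was slightly lower. Edn1 (ENSMUSG00000021367, chromosome 13 of GRCm38 from 42301476 to 42307990, plus strand) was counted 198 and 205 times in control and 205 and 186 times after IL-12. Scaled, these were 10.5 and 10.9 CPM against 10.4 and 10.3 CPM, so that both IL-12 values were the lower ones by a small margin. Its log2 fold change was -0.05 ± 0.12 (SE; edgeR quasi-likelihood test, adjusted p = 0.822), and the 95% interval of the ratio between the groups ran from 0.814 to 1.15. An overlapping antisense gene had 10 counts in all against 794 for Edn1.

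Ece1 (ENSMUSG00000057530, chromosome 4 from 137862237 to 137965229, plus strand) was among the more abundant genes of the cells, above 87.7% of all genes tested in the control group. It was counted 2685 and 2524 times in control and 2505 and 2279 times after IL-12, or 142 and 134 CPM against 127 and 126 CPM. Both IL-12 libraries were lower, by a log2 fold change of -0.12 ± 0.04 (SE; edgeR quasi-likelihood test, adjusted p = 0.0372), a ratio of 0.917. This call depended on single libraries. Without control replicate 1 the log2 fold change was -0.08 (adjusted p = 0.396), and without IL-12 replicate 1 or 2 the adjusted p was 0.146 and 0.142. The DESeq2 Wald test did not call Ece1 either (adjusted p = 0.131).

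The other genes of the endothelin system were mostly silent. Of 5 further genes, Edn2, Edn3 and Ecel1 had 0 counts in all libraries and Ece2 had at most 3 in a library. The exception was Mme, which encodes neprilysin, a membrane peptidase that degrades endothelin, angiotensin and natriuretic peptides and is a known podocyte surface protein. Mme was counted 4854 and 4965 times in control and 2698 and 2833 times after IL-12. It fell from 260 ± 4.84 CPM to 146 ± 14.3 CPM (SD, n = 2), which is a log2 fold change of -0.83 ± 0.05 (SE; edgeR quasi-likelihood test, adjusted p = 3.79e-10).

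In the angiotensin system the precursor was the only member detected, and it showed the largest change of the 6 tested members. Agt (ENSMUSG00000031980, chromosome 8 from 124556534 to 124569706, minus strand) was counted 50 and 48 times in control and 17 and 19 times after IL-12. In scaled counts it fell from 2.59 ± 0.0679 CPM to 0.955 ± 0.135 CPM (SD, n = 2). The 2 control libraries were close to each other, and both IL-12 libraries lay far below them. The log2 fold change was -1.44 ± 0.31 (SE; edgeR quasi-likelihood test, adjusted p = 0.00131), a ratio of 0.369 with a 95% interval from 0.236 to 0.576. The size of this change was above that of 99.1% of all genes tested, but Agt was also a rare transcript, above only 18.9% of them in level, and its counts limit the precision. Leaving out each library in turn kept the log2 fold change between -1.58 and -1.30, with an adjusted p of at most 0.0415. No other gene of the count table overlaps Agt.

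The promoter of Agt is shown because this gene fell most among the members, and that of Fkbp5 because it was the only member that rose. Both sequences are the 250 bases before the RefSeq transcription start, on build GRCm38.p6 and read 5′ to 3′ on the minus strand. The Agt promoter lies at chr8:124569707-124569956 and the Fkbp5 promoter at chr17:28486150-28486399. The Agt window directly precedes the gene as counted, whereas the Fkbp5 window belongs to one RefSeq start that lies 31378 bases inside the gene as counted, which has 15 transcripts in GENCODE, and the counts do not show which start was used. Capitals mark matches to TATAAA and to CCAAT on either strand, motifs that were chosen after the sequences had been seen.

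Agt: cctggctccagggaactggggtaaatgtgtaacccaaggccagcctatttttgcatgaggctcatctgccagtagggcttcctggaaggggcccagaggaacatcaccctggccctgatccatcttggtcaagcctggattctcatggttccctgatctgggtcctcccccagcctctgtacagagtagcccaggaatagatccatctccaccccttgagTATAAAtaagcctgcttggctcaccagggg

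Fkbp5: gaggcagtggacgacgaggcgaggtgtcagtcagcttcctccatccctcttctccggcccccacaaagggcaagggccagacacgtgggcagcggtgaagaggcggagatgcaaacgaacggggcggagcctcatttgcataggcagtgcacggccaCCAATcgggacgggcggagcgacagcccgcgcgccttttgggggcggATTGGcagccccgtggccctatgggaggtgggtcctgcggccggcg

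The promoters differ in kind. That of Agt has a TATAAA motif from -30 to -25 relative to the start, which 12.4% of the 32851 mouse promoters in the RefSeq table hold somewhere in the same 250 bases, and a GC content of 55.6%. That of Fkbp5 has no TATAAA, a GC content of 68.0%, and CCAAT matches from -93 to -89 and, on the other strand, from -46 to -42. CCAAT is present in 33.8% of promoters. The half-site TGTTCT of the glucocorticoid response element, searched on both strands, was found in neither sequence and is held by 16.1% of promoters. These are descriptions of letters in a short window and do not show which factors bind.

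The other genes of the angiotensin system were examined in a list of 17. Of these, 4 had 0 counts in all libraries, namely Ren1 (renin), the receptors Agtr1b and Agtr2, and Mas1, the receptor of angiotensin 1-7. A further 3 were below the filter on low counts. Of the 10 that could be tested, 1 was higher and 3 were lower, and the lower count was 1 without control replicate 1 or IL-12 replicate 1. Thop1, which encodes a peptidase that can form angiotensin 1-7 from angiotensin I, rose from 52.2 ± 0.401 CPM to 67.9 ± 0.788 CPM (SD, n = 2), which is a log2 fold change of 0.38 (adjusted p = 1.82e-05 from edgeR's quasi-likelihood test). Enpep, the aminopeptidase that converts angiotensin II to angiotensin III, was counted 106 and 72 times in control and 45 and 44 times after IL-12, a log2 fold change of -0.999 (SE 0.23; edgeR adjusted p = 0.00254). The control libraries of Enpep were far apart, and the call was lost without control replicate 1 (log2 fold change -0.69, adjusted p = 0.0774) and without IL-12 replicate 1 (adjusted p = 0.0771). Ctsd and Atp6ap2, which encode cathepsin D and the prorenin receptor, were lower by 0.13 on the log2 scale each, and Atp6ap2 was not called when any single library was left out (adjusted p from 0.0886 to 0.165).

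Both corticosteroid receptor genes were lower and Fkbp5 was higher in the IL-12 treatment group. Nr3c1 (ENSMUSG00000024431, chromosome 18, minus strand) was counted 3080 and 3150 times in control and 2893 and 2704 times after IL-12, which correspond to 163 and 167 CPM against 146 and 149 CPM. The groups did not overlap, but the change was small, with a log2 fold change of -0.16 ± 0.04 (SE; edgeR quasi-likelihood test, adjusted p = 0.00576), a ratio of 0.897. The change of Nr3c1 was no longer called without control replicate 2 (adjusted p = 0.0679) or without IL-12 replicate 1 (adjusted p = 0.0683).

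Nr3c2 (ENSMUSG00000031618, chromosome 8 from 76899442 to 77245012, plus strand) was counted 316 and 321 times in control and 215 and 218 times after IL-12. It fell from 16.8 ± 0.232 CPM to 11.5 ± 0.836 CPM (SD, n = 2). Both IL-12 values lay below both control values, and the gap between the groups was larger than that within either. The log2 fold change was -0.56 ± 0.11 (SE; edgeR quasi-likelihood test, adjusted p = 0.000528), a ratio of 0.680 with a 95% interval from 0.581 to 0.794. The change was larger in size than that of 90.5% of all genes tested, and leaving out each library in turn moved it between -0.63 and -0.48 with an adjusted p of at most 0.0305. The 3 genes that overlap Nr3c2 had 0 counts.

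As Nr3c2 was lower by more than Nr3c1, the balance of the receptor transcripts differed between the groups. Per length, the ratio of Nr3c1 to Nr3c2 was 8.50 and 8.56 in control against 11.7 and 10.8 after IL-12, or 8.53 ± 0.0408 against 11.3 ± 0.649 (SD, n = 2). The ratio was higher in each IL-12 library than in either control, and no p-value is given for it, since the exact permutation test of a single value is limited to 0.333 as stated above. Glucocorticoid receptor transcripts were in excess over mineralocorticoid receptor transcripts in every library.

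**Figure D3:**
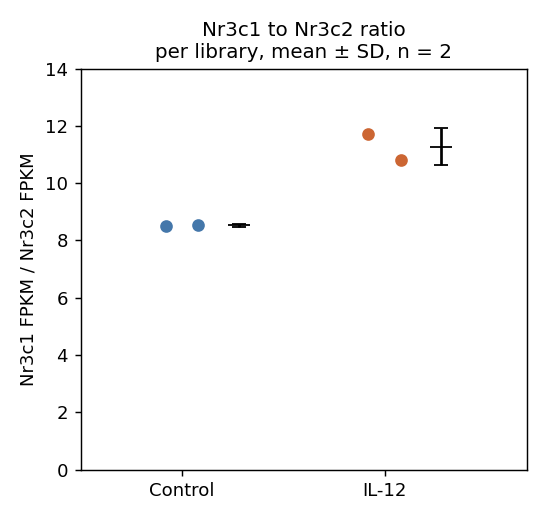
Ratio of the FPKM of Nr3c1 to that of Nr3c2 in each library, on an axis that starts at 0, with dots for libraries and bars for the mean ± SD of 2 libraries. The control libraries lie at 8.50 and 8.56 and the IL-12 libraries at 11.7 and 10.8.

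Fkbp5 (ENSMUSG00000024222, chromosome 17 from 28399094 to 28517527, minus strand), whose promoter is given above, was counted 386 and 411 times in control and 599 and 585 times after IL-12. It rose from 21.1 ± 0.991 CPM to 31.3 ± 1.45 CPM (SD, n = 2). Every IL-12 value was well above both control values. The log2 fold change was 0.57 ± 0.08 (SE; edgeR quasi-likelihood test, adjusted p = 2.53e-05), a ratio of 1.48 with a 95% interval from 1.32 to 1.67. Fkbp5 had the smallest p-value of the 6 tested members, at rank 872 of all genes tested. Leaving out each library in turn kept its log2 fold change between 0.52 and 0.62, with an adjusted p of at most 0.00503. The 4 genes that overlap Fkbp5 had 2 counts in all.

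**Figure D4:**
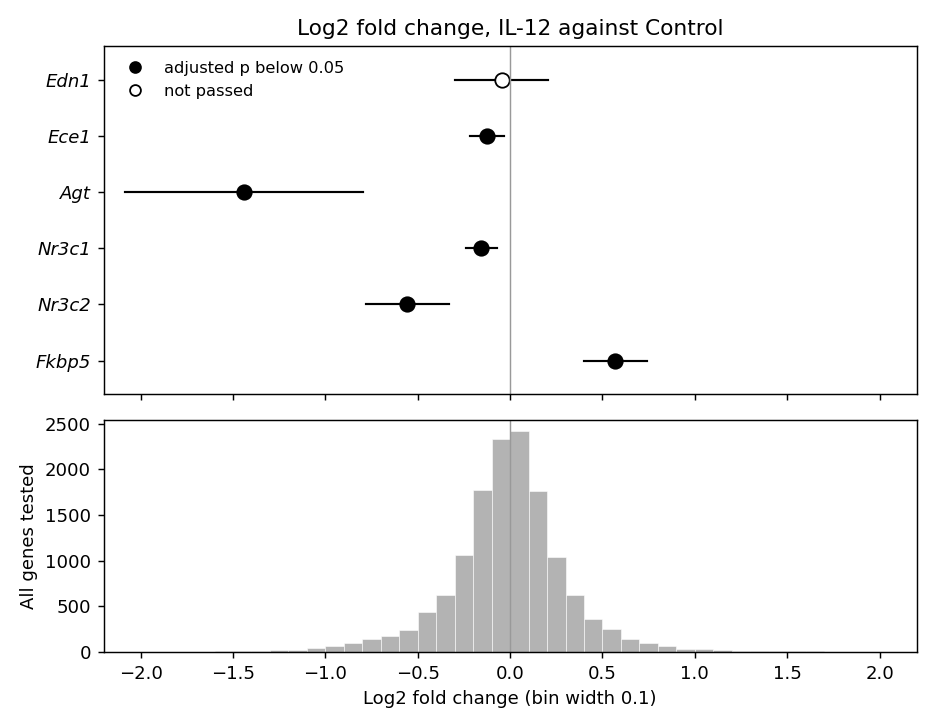
Log2 fold change of the IL-12 treatment group against the control group for the 6 tested members (above; lines are 95% intervals, filled symbols passed an adjusted p of 0.05) and the distribution of all 14095 genes tested in bins of 0.1 (below, limited to -2 to 2). Agt at -1.44 lies in the far lower tail, Nr3c2 at -0.56 and Fkbp5 at 0.57 lie in opposite tails, and Nr3c1, Ece1 and Edn1 lie near the centre.

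The partners of these receptors were then examined in lists of known genes, which held 93 distinct genes, 67 of them tested. Of these, 12 were higher and 17 were lower, against the 16.1% and 14.4% of all genes tested given above for any fold change. The lower count was 10 without control replicate 1 and 10 without IL-12 replicate 1. The median log2 fold change of the 67 tested genes was -0.0199.

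Among the genes that act behind the endothelin and angiotensin receptors (Gq and G12/13 subunits, phospholipases, arrestins and TRPC channels), 13 of 18 could be tested. Of these, 1 was higher and 4 were lower, and both counts changed when single libraries were left out. The weakest of the lower calls had an adjusted p of 0.0403 (edgeR quasi-likelihood test). Arrb1, which encodes a β-arrestin that uncouples and internalizes such receptors, fell from 37.6 ± 0.872 CPM to 25.5 ± 0.00359 CPM (SD, n = 2; log2 fold change -0.56, adjusted p = 7.07e-06 from edgeR's quasi-likelihood test). Arrb2, the gene of another β-arrestin, showed no detectable change (log2 fold change -0.06, adjusted p = 0.715 from the same edgeR test). Plcb4, a phospholipase C that Gq activates, and Rcan1, a target and inhibitor of calcineurin, fell by 0.41 and 0.39 on the log2 scale. Gnaq, which encodes a Gq subunit, rose by 0.22 (adjusted p = 0.000197 from the same edgeR test). Gna11, the gene of a related subunit, showed no detectable change (log2 fold change -0.02, adjusted p = 0.744 from the same edgeR test). Trpc6, the channel linked to hereditary podocyte disease, had 0 counts in all libraries.

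The genes that hold and assist the steroid receptors were the most fully expressed list, with 19 of 20 tested, of which 6 were higher and 3 were lower. These counts depended on single libraries. Without IL-12 replicate 1 they were 3 higher and 0 lower, and without control replicate 1 they were 5 higher and 0 lower. The chaperones with the smallest p-values were all higher. Hspa8, which encodes the constitutive HSC70, rose from 1636 ± 33.1 CPM to 2066 ± 6.78 CPM (SD, n = 2; log2 fold change 0.34, adjusted p = 4.4e-09 from edgeR's quasi-likelihood test). Ppid, the cyclophilin that binds the same HSP90 site as FKBP5, rose from 150 ± 0.799 CPM to 204 ± 3.56 CPM (log2 fold change 0.44, adjusted p = 5.3e-08). Hsp90ab1 and Ptges3, which encode an HSP90 isoform and its p23 partner, were higher by 0.16 and 0.21. Ptges3 was not called without IL-12 replicate 1 (log2 fold change 0.17). Hsp90aa1, the gene of another HSP90 isoform, showed no detectable change (log2 fold change 0.03, adjusted p = 0.473 from edgeR's quasi-likelihood test). The lower genes, named after their values were seen, were the receptor coregulators Ncor1 (-0.14), Ep300 (-0.14) and Ncoa1 (-0.27). Their edgeR adjusted p was 0.129, 0.351 and 0.0719 without control replicate 1 and 0.102, 0.197 and 0.269 without IL-12 replicate 1, and Ep300 was also not called without IL-12 replicate 2 (0.0696). Hsd11b1, which regenerates active glucocorticoid, had 0 counts in all libraries. Hsd11b2, which inactivates it, was counted 52 and 35 times in control and 34 and 27 times after IL-12 (adjusted p = 0.212 from the same edgeR test, 95% interval of the log2 fold change from -1.13 to 0.11).

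Genes known to be induced by glucocorticoids moved in both directions. Of 25 such genes, 19 were tested, 4 were higher and 4 were lower, and the median log2 fold change was 0.05. Sgk1, a kinase induced by both corticosteroid receptors, rose from 24.7 ± 1.09 CPM to 38.7 ± 1.62 CPM (SD, n = 2; log2 fold change 0.65, adjusted p = 1.98e-06 from edgeR's quasi-likelihood test), a change near that of Fkbp5. Errfi1 and Dusp1, which restrain EGF receptor and MAP kinase signalling, rose by 0.26 and 0.23. Bcl6, a transcriptional repressor, fell from 34.1 ± 1.52 CPM to 21.1 ± 0.980 CPM (log2 fold change -0.69, adjusted p = 2.14e-06). Tsc22d3, the gene of the glucocorticoid-induced leucine zipper, was counted 521 and 533 times in control and 544 and 486 times after IL-12. The level was 27.9 ± 0.523 CPM against 27.2 ± 0.449 CPM (SD, n = 2), with both IL-12 values just below or level with the lower control value of 27.5 CPM, and the log2 fold change was -0.04 (SE 0.08; edgeR adjusted p = 0.776, 95% interval from -0.20 to 0.12). The other genes that passed, named after their values were seen, were Cebpd (0.24) upward and Per1 (-0.37), Ddit4 (-0.19) and Mt1 (-0.17) downward. The calls of Cebpd and Per1 were lost without IL-12 replicate 1 (adjusted p = 0.257 and 0.143), that of Cebpd also without control replicate 1 or IL-12 replicate 2 (adjusted p = 0.312 and 0.0904), and that of Mt1 without control replicate 1 or IL-12 replicate 2 (adjusted p = 0.0883 and 0.0758).

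Of 10 epithelial targets of the mineralocorticoid receptor, 7 were tested, of which 1 was higher and 2 were lower. The higher gene was Sgk1, which is in both lists. Atp1b1, the β subunit of the sodium pump, fell from 152 ± 0.494 CPM to 96.4 ± 2.05 CPM (SD, n = 2; log2 fold change -0.65, adjusted p = 1.7e-09 from edgeR's quasi-likelihood test). Nedd4l, a ubiquitin ligase that removes the epithelial sodium channel and is inhibited by SGK1, fell from 81.6 ± 0.419 CPM to 54.6 ± 1.54 CPM (log2 fold change -0.58, adjusted p = 7.08e-08). The subunits of that channel had low counts, with at most 27 counts per library for Scnn1a, at most 2 for Scnn1b and 0 for Scnn1g.

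**Figure D5:**
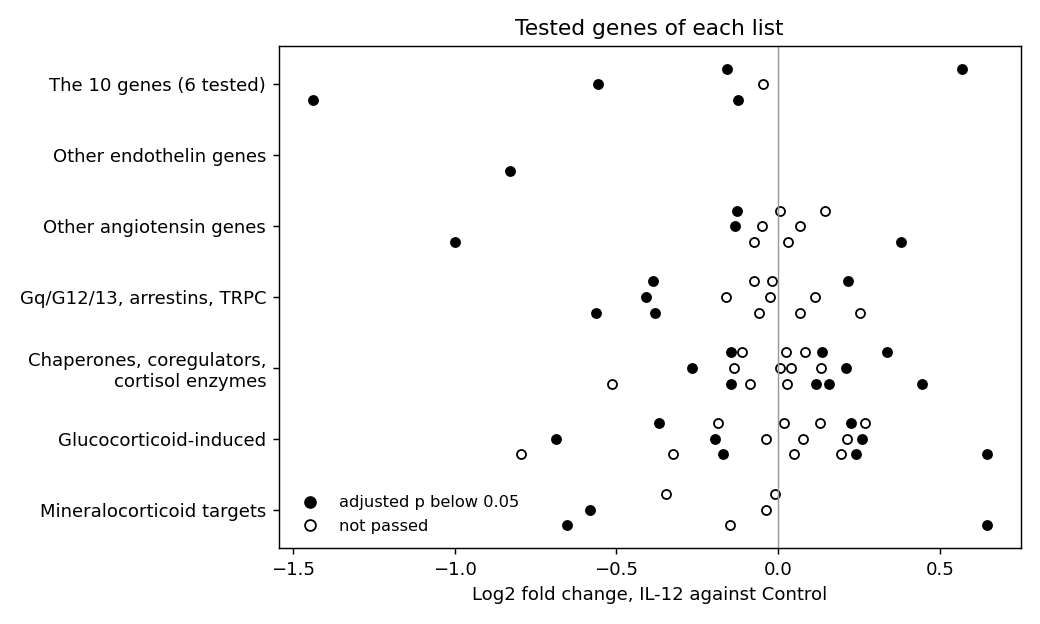
Log2 fold change of each tested gene, by list, with the 6 tested members in the top row; each dot is one gene, filled where the adjusted p was below 0.05, and the vertical offset within a row has no meaning. Filled dots stand on both sides of 0 in the angiotensin, G-protein, chaperone, glucocorticoid and mineralocorticoid lists, and Agt at -1.44 lies farthest out.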

How the data were processed

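The members and the pathway lists were chosen with earlier results of these data known. Per the labels, reads were aligned with HISAT2 and assembled with StringTie (versions not given in the sources used here). The authors deposited whole-number counts per gene and FPKM values, which are counts divided by gene length and library total with a further factor of 0.985 to 1.02 per library. The submitters' notes name build mm9, but the file coordinates equal those of GENCODE M21 (GRCm38) for 98.3% of shared genes and for 9 of the 10 members, all but Nr3c1, whose coordinates are not printed. The dose comes from the study's methods and the saline control from its results text. Strand setting was not given in the sources used here.

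Counts were tested with edgeR 4.0.16 (R 4.3.3) by the quasi-likelihood test, with TMM scaling and a filter on low counts (filterByExpr, minimum 10, total 15), and p-values were adjusted by Benjamini-Hochberg over all 14095 genes tested. A call is an adjusted p below 0.05. Standard errors were taken from the fold change and its F statistic. Totals were 18355379 to 20098012 counts per library. No 2 libraries of a group looked like one library deposited again (chi-square of their counts per degree of freedom 2.13 and 2.41). Alternatives used DESeq2 1.42.0, limma 3.58.1, other scalings, filters and pseudocounts, a replicate block, and leaving out each library. The fit was tested on simulated counts. Named genes were all members and, per list, up to 4 passing genes with the smallest p, or the smallest where none passed. Ren1, Agtr1b, Agtr2, Hsd11b1, Hsd11b2, Tsc22d3 and Trpc6 were named as well. Arrb2, Gna11 and Hsp90aa1 were named after their values were seen. Promoters were read from RefSeq (GRCm38.p6). Some genes of the lists are not reported here.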

Additional observations from a re-analysis of the deposited data

How the results depend on the processing

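No member changed direction under any of the 18 alternatives. Agt was called in all 18, Fkbp5 and Nr3c2 in 17, Nr3c1 in 15 and Ece1 in 8. For Ece1 the log2 fold change was -0.13 with the DESeq2 Wald test with or without independent filtering (adjusted p = 0.131 with it), -0.12 without the low-count filter and -0.12 with limma on log2(FPKM + 1) or log2(FPKM + 0.1) (adjusted p = 0.0991 with the latter), and Ece1 was not called at an adjusted p below 0.01 (-0.12). A 2-fold limit removed Ece1 (-0.12), Nr3c1 (-0.16), Nr3c2 (-0.56) and Fkbp5 (0.57), which left 0 members higher and 1 lower, and 0 pathway genes higher and 0 lower. Leaving out single libraries moved Ece1 between -0.17 and -0.080, Nr3c1 between -0.17 and -0.14, the members called lower between 2 and 3, and the pathway genes called lower between 10 and 16. With limma on log2(FPKM + 1), 11 pathway genes were lower. The cause was not tested. Where an arm held 1 library, it was assumed to vary like the other group.

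The DESeq2 Wald test called 1481 genes higher and 1204 lower, against 2267 and 2030 with edgeR. Scaling by total counts alone gave 40.5% of calls upward against 52.8% with TMM, moved the median log2 fold change of all genes tested from -0.0022 to -0.043, and left 1 member higher and 4 lower. Same-numbered libraries did not deviate together (correlation -0.0297). With the replicate block 1 member was higher and 4 were lower, and the adjusted p of Ece1 was 0.0448.

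Agt had 17 to 50 counts per library, which limits its precision, and Ednra, Ednrb, Ace and Agtr1a could not be tested at this depth.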

Other observations

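The genes whose levels over the 4 libraries lay closest to those of a member, measured as the root mean square difference of log2 values after each gene was centred, were found among 9496 tested genes of at least 10 CPM. For Fkbp5 they were Noc2l (0.0129), Aven (0.0143) and Usp27x (0.0145), and for Nr3c2 Myo9a (0.00727), Rbms3 (0.0179) and Ralgds (0.0197). For Agt they were Aqp1 (0.031), Gpr146 (0.054) and P3h2 (0.0717). A constant was added to CPM before the log, which shrinks the change of a rare gene such as Agt. The edgeR log2 fold changes of Aqp1, Gpr146 and P3h2 were -1.12, -1.06 and -0.977, against -1.44 for Agt. Agt itself was below 10 CPM, so genes as rare as Agt were not among those compared.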
